A study of Mus musculus with 6 samples.

Results

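The 1 Mb of mouse chromosome 1 from 34000001 to 35000000 (mm10) reaches from *Dst* through *Ccdc115*, *Imp4*, *Ptpn18*, *Prss39*, *Cfc1*, *Prss40*, *Amer3* and *Arhgef4* to *Fam168b*, and it held 153 of the 99695 regions at which DPPA4 peaks were called on chromosomes 1 to 19, X and Y. The window and its 10 listed genes were selected on measured values, namely on the number of regions with a peak only in GFP-positive cells and on their mostly single-copy sequence, so these values are a description and are not tested. Overlapping peaks of both lists were merged where they shared at least 1 bp, and a region was assigned to the window by its summit. Of the 153 regions, 84 were GFP-positive-only, 55 were common to both lists and 14 were GFP-negative-only. Over all 99695 regions the same classes made up 18.4%, 35% and 46.7%.

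DPPA4 was profiled by CUT&RUN, in which an antibody-tethered nuclease cuts around the bound protein and the freed DNA fragments are sequenced. The cells were embryonic stem cells (ESCs) of a BL6/129 hybrid strain in which EHMT2 carries a dTAG degradation tag and which hold mCherry and a GFP reporter under the MERVL retroviral promoter. All groups used here were exposed to dTAG for 72 h, so EHMT2 was meant to be degraded in every sample, and no sample without dTAG entered the comparison. Live cells were sorted into GFP-negative cells, which stand for ESCs, and GFP-positive cells, which stand for 2-cell-like cells (2CLCs), the rare ESC state in which MERVL is active. Each group had 2 DPPA4 libraries, and each deposited list pools the 2, so a peak has 1 value per list and no spread between replicates can be given. The cells came from a gene-targeted line, and whether the duplicates were separate cultures or clones was not given in the sources used here. The IgG libraries, 1 of GFP-negative and 1 of bulk cells, were not used here. Peak lists hold no expression values, so the sorted identity of the cells rests on the labels.

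DPPA4 forms a heterodimer with DPPA2, binds chromatin in ESCs and early embryos, and is required for the expression of many genes of the 2-cell stage. EHMT2, a histone methyltransferase, sets H3K9me2, a mark of silent chromatin. *Dst*, the largest gene of the window, encodes dystonin, a giant plakin that links intermediate filaments to actin and microtubules. The genes beyond it serve several different functions, named below where each is described.

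The summit sequences below are examples from each class, chosen by rank or position, and do not represent the classes as a whole. They begin with the GFP-positive-only region with the highest −log10 q of the window and the GFP-positive-only region of *Dst* with the highest −log10 q. A GFP-positive-only region over an internal *Dst* start site and another in multi-copy sequence follow. Then come the *Ptpn18* promoter with the highest GFP-negative −log10 q of the window and the strongest GFP-negative-only region. Each is 201 bp of the reference genome centred on the summit, plus strand, 5′ to 3′, in lower case with CG dinucleotides in capitals. The last sequence is the RefSeq promoter (GRCm38.p6, 250 bases before to 50 after the start) of the internal *Dst* start site at chr1:34160010-34160309, which overlapped 1 GFP-positive-only region and no other.
*Amer3* to *Arhgef4* spacer, GFP-positive-only, chr1:34640874-34641074, 1 CG: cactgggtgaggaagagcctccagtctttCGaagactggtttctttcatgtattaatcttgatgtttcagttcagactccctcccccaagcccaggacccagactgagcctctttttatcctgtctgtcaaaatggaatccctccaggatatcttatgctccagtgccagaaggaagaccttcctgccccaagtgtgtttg
*Dst* intron 48, GFP-positive-only, chr1:34202666-34202866, 10 CG: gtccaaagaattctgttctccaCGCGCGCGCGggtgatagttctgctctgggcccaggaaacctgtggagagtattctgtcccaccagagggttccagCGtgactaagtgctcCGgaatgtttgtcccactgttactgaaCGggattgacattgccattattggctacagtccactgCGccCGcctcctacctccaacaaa
*Dst* intron 8 start site, GFP-positive-only, chr1:34121346-34121546, 3 CG: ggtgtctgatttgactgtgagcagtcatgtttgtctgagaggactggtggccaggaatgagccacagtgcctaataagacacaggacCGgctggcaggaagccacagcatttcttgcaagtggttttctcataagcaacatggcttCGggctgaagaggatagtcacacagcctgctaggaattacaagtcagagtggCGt
*Amer3* to *Arhgef4* spacer, multi-copy, GFP-positive-only, chr1:34647555-34647755, 2 CG: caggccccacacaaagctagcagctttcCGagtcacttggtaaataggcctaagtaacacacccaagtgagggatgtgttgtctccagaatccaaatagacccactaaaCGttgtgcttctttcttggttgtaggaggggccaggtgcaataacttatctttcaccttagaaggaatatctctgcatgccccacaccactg
*Ptpn18* promoter, common, chr1:34459630-34459830, 13 CG: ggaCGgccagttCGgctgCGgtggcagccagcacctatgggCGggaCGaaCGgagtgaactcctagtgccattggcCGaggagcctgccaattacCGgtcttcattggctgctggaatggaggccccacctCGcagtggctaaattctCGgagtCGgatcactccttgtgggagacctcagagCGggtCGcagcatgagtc
*Dst* intron 4, GFP-negative-only, chr1:34038691-34038891, 2 CG: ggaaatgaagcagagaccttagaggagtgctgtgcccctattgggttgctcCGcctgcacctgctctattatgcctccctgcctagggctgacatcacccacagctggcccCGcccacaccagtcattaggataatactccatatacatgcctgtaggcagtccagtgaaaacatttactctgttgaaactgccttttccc
*Dst* RefSeq promoter, plus strand, chr1:34160010-34160309, 6 CG: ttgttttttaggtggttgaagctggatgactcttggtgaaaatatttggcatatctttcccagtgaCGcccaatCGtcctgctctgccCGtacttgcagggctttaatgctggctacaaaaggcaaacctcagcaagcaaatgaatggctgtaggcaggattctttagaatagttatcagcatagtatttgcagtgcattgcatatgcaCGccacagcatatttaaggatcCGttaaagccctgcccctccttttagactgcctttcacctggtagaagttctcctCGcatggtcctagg

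The window stood out for GFP-positive-only regions and less for the other classes. Among 2641 windows of 1 Mb with any region, it ranked 3rd for GFP-positive-only regions, 93rd for common regions and 954th for GFP-negative-only regions, while the median window held 3, 8 and 8. The GFP-positive-only share of its regions was 54.9% (95% Wilson interval 47.0 to 62.6%), the common share 35.9% (28.8 to 43.8%) and the GFP-negative-only share 9.15% (5.53 to 14.8%). These intervals cover counting error only, and neighbouring peaks of 1 pool of libraries are not independent. The GFP-positive list had 140 peaks that covered 15.6% of the window's bases, and the GFP-negative list had 75 peaks that covered 5.38%. Over all chromosomes the GFP-positive list was the shorter, with 54642 peaks covering 2.10% of the bases against 83602 peaks covering 2.53% in the GFP-negative list.

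**Figure D1:**
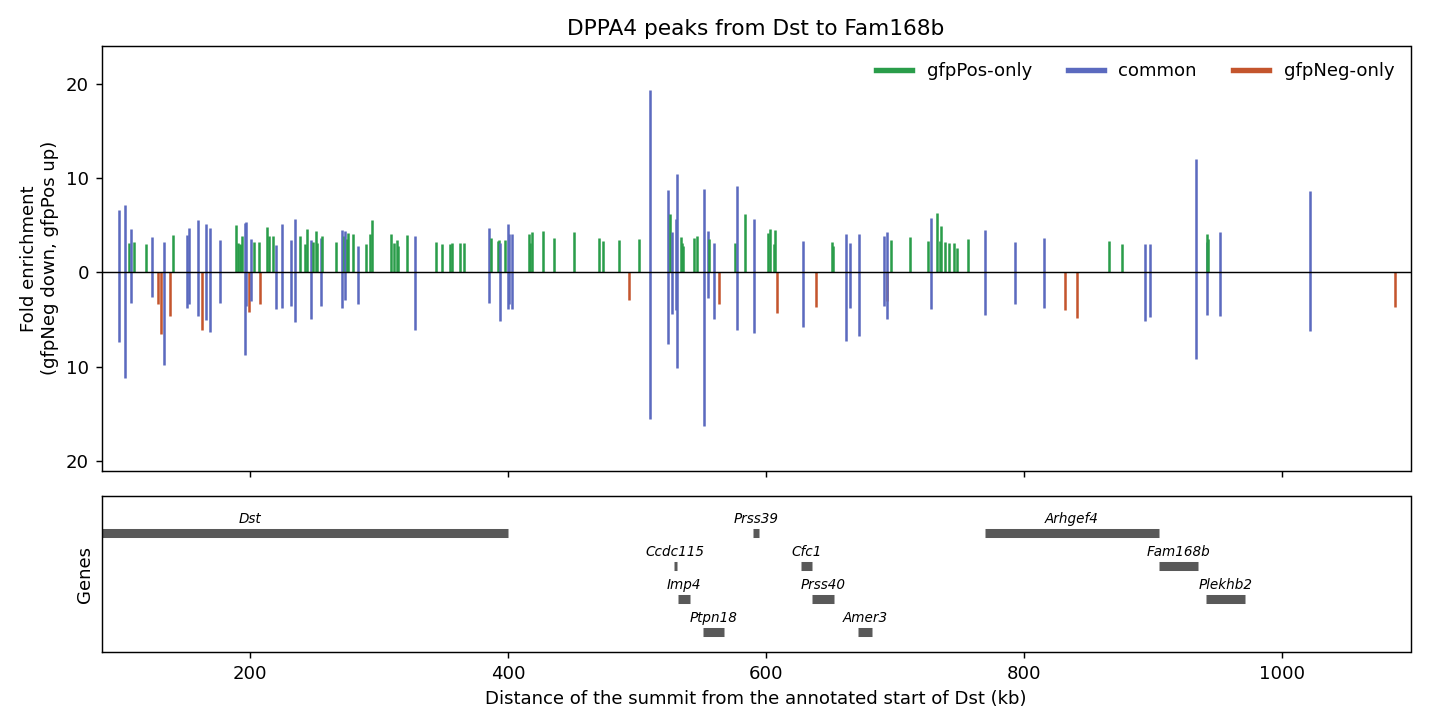
Fold enrichment of the DPPA4 peak with the highest −log10 q of each list in every region of the window, with the GFP-positive list (gfpPos) drawn upwards and the GFP-negative list (gfpNeg) downwards, against the distance of the summit from the annotated start of *Dst* in kb; colours give the class and grey bars the genes. The 84 gfpPos-only regions lie mostly over *Dst* and the spacers up to *Arhgef4*, and none of them exceeds a fold enrichment of 6.34.

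GFP-positive-only regions were dense over most of the window and sparse at its right end, and a smaller group lay to its left. In 100-kb steps, their count was 9 from 33700001, 8 from 33800001 and 2 from 33900001, which holds the 5′ end of *Dst*. The count was then 6, 21, 15, 11, 10, 6 and 11 in the 7 steps from 34000001 to 34700000. The count fell to 2, 2 and 0 in the last 3 steps, over *Arhgef4* and beyond. The neighbouring megabase on the left held 22 GFP-positive-only, 23 common and 14 GFP-negative-only regions, and the one on the right 2, 9 and 20. *Bend6*, the coding gene left of *Dst* at chr1:33852052-33907816, held 4 GFP-positive-only, 2 common and 2 GFP-negative-only regions. No region crossed an edge of the window. At the left edge the nearest regions were both common, at chr1:33994187-33994503 outside (fold enrichment 3.54 in the GFP-positive and 2.95 in the GFP-negative list) and at chr1:34005238-34007754 inside (6.59 and 7.40). At the right edge, the last region inside was GFP-negative-only at chr1:34996195-34996424 (fold enrichment 3.62), and the next one outside was GFP-positive-only at chr1:35048520-35049446 (5.32), 49.2 kb beyond.

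**Figure D2:**
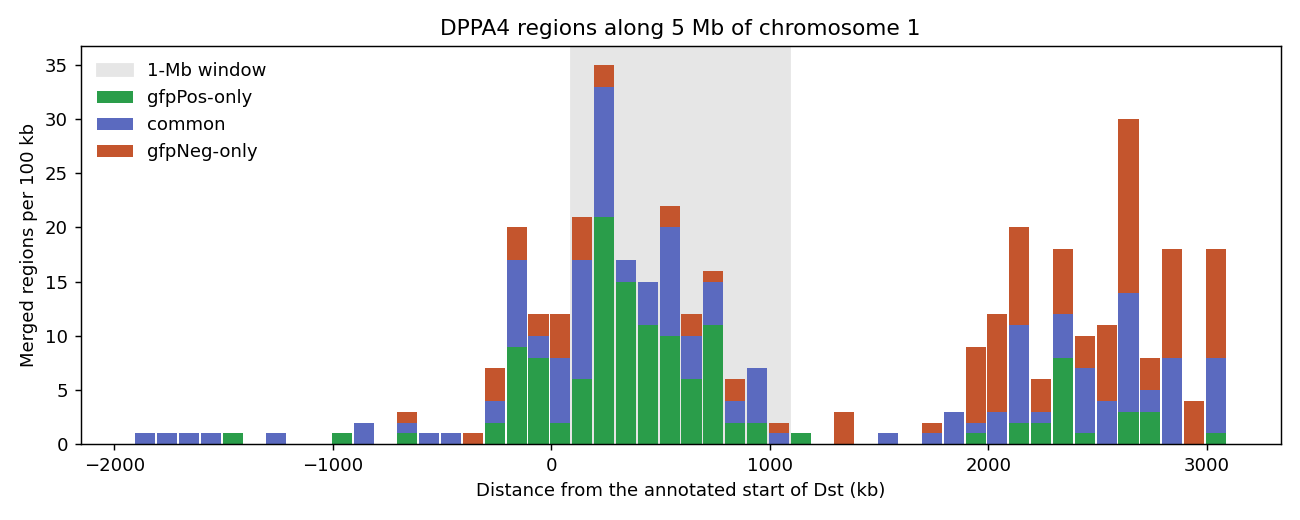
Merged DPPA4 regions per 100 kb along 5 Mb of chromosome 1, stacked by class, against the distance from the annotated start of *Dst* in kb; the grey band is the 1-Mb window. The highest gfpPos-only bar, 21 regions, lies within *Dst*, and the counts drop to 2 or fewer over *Arhgef4*.

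*Dst* carried more of these regions than all the other genes and spacers of the window together. Within the 309 kb of *Dst* that lie in the window there were 44 GFP-positive-only, 27 common and 6 GFP-negative-only regions, and GFP-positive peaks covered 28.0% of the bases against 8.51% for GFP-negative peaks. The whole gene of 400 kb held 46, 31 and 10. The classes were spread unevenly along it. From 5′ to 3′, the first of 4 equal stretches of the gene held 2 GFP-positive-only, 5 common and 4 GFP-negative-only regions, the second 9, 12 and 5, the third 20, 10 and 1, and the fourth 15, 4 and 0. GFP-negative-only regions lay toward the 5′ end and GFP-positive-only regions toward the 3′ end. Bases covered by GFP-positive against GFP-negative peaks were 8.03% and 7.09% in the first stretch, 39.0% and 14.2% in the second, 33.5% and 6.09% in the third, and 12.3% and 3.41% in the fourth. In the second stretch, a single wide peak described below gave 17158 of the 39017 bp under GFP-positive peaks.

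Along the longest annotated exon chain of *Dst* (Dst-211, 103 exons), the regions fell mostly in introns. The share of *Dst* bases in introns was not computed, so these counts are not set against length. Intron 4, which spans chr1:34006399-34086241, held 4 GFP-positive-only, 11 common and 4 GFP-negative-only regions. Intron 5, the next one, at chr1:34086304-34113932, held 6, 3 and 1. Introns 8, 9 and 35 each held 3 GFP-positive-only and 2 common regions, and introns 14 and 57 each held 3 GFP-positive-only regions and no other. Summits in exons of this transcript were few: exon 39 held 1 GFP-positive-only and 1 common region, exon 17 held 1 common region, and exons 47 and 80 held 1 GFP-positive-only region each. Some summits in its introns lay in exons of other transcripts, as at chr1:34180936-34181404 in intron 35.

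The strongest GFP-positive-only region within *Dst* was in intron 48 at chr1:34202488-34203292, with a fold enrichment of 5.58 and a −log10 q of 7.12. It is the second sequence above, with 10 CG dinucleotides in 201 bp. The next were at chr1:34120065-34121801 (4.84 and 5.90), over an annotated *Dst* start site within intron 8, and at chr1:34096463-34098930 in intron 5 (4.98 and 5.05). The widest peak of the window also lay in *Dst*. It spanned 17158 bp at chr1:34078645-34095802 with a fold enrichment of 3.43 and a −log10 q of 3.99 in the GFP-positive list, and was common only through a GFP-negative peak of 236 bp (3.19 and 1.67).

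*Dst* has 17 annotated start sites, and its promoters (2.5 kb before to 0.5 kb after a start) held 6 common and 5 GFP-positive-only regions. The first promoter, at the 5′ end of the gene outside the window, was common at chr1:33906361-33909859, with fold enrichments of 10.1 in the GFP-positive and 11.9 in the GFP-negative list. The promoter at chr1:34010828-34012447 was common as well (7.14 and 11.2). Its RefSeq promoter had 31 CG dinucleotides in 300 bases, a number reached by 10.6% of the 32851 promoters of the RefSeq table, whose median was 7. The GFP-positive-only promoter regions started at 34120065, 34158184, 34159985, 34256732 and 34270624, with fold enrichments of 4.84, 4.36, 3.15, 2.98 and 3.12. The last 3 of these had a −log10 q of 1.46, 1.44 and 1.46, close to the lowest value of the list, 1.3. The RefSeq promoter printed last among the sequences above lies in the region that starts at 34159985 and had 6 CG, a number reached by 56.4% of promoters. The 3 promoter regions nearest the 5′ end of *Dst* were common, while the later start sites held regions of both classes, the common ones at 34178111, 34236110 and 34292599.

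The spacers carried the next largest groups. Between *Dst* and *Ccdc115*, 128 kb with only short noncoding genes and pseudogenes, there were 11 GFP-positive-only, 5 common and 1 GFP-negative-only regions, and 9 of the GFP-positive-only regions followed each other over 72.6 kb with no region of another class between them. That run was the longest of the window. Its member with the highest −log10 q was chr1:34358566-34359363, with a fold enrichment of 4.25 and a −log10 q of 5.09. At the *Ccdc115* end of the spacer, a GFP-positive-only region lay at chr1:34433811-34434324 in the promoters of *Gm37233*, a lincRNA, and *Mir5103*, a microRNA, with a fold enrichment of 6.21 and a −log10 q of 7.88. Common regions flanked it on both sides, at chr1:34431473-34433609 and chr1:34434457-34435351.

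The spacer of 87.2 kb between *Amer3* and *Arhgef4* held 11 GFP-positive-only, 4 common and 1 GFP-negative-only regions, and GFP-positive peaks covered 26.2% of its bases against 3.43% for GFP-negative peaks. Part of this cover was multi-copy, with copy number as defined below. Examples are the GFP-positive-only regions chr1:34645372-34648718 (3347 bp, copy number 652) and chr1:34648931-34650725 (1795 bp, 634). The common region chr1:34602165-34604339 (2175 bp) had a copy number of 226 over its whole length. In this spacer lay the GFP-positive-only region with the highest −log10 q of the window, chr1:34638040-34642502, with a fold enrichment of 6.34 and a −log10 q of 10.1. At 4463 bp it was also the widest GFP-positive-only region. Another past a −log10 q of 5 followed nearby at chr1:34643405-34644792 (4.92 and 6.56). Both belonged to a run of 8 GFP-positive-only regions over 27.3 kb that ended at 34665340. It included the multi-copy regions chr1:34645372-34648718, chr1:34648931-34650725 and chr1:34656432-34656928 (copy number 7). The run was followed by the largest gap between GFP-positive-only summits, 109 kb, across the *Arhgef4* promoter and its 5′ introns. Between *Ptpn18* and *Prss39*, a shorter spacer of 22.7 kb, lay the region with the next highest −log10 q, chr1:34491241-34492085 (6.15 and 9.33).

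**Figure D3:**
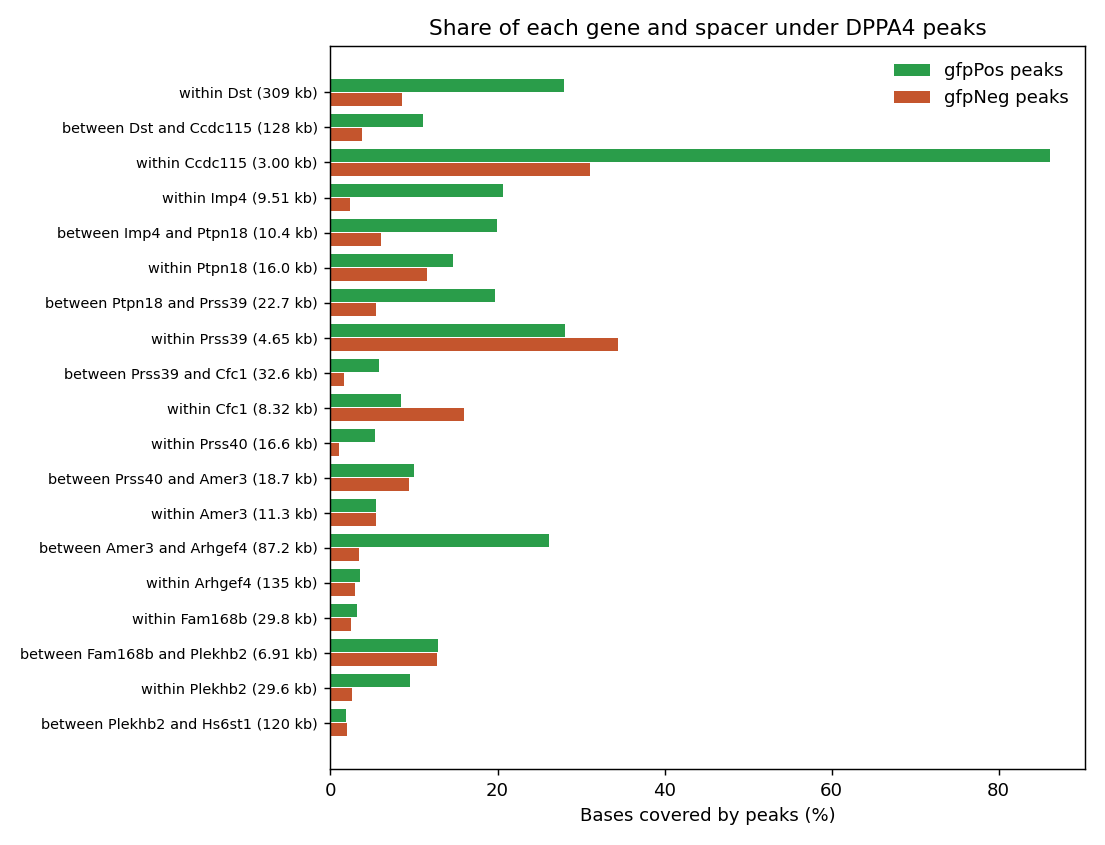
Percentage of bases covered by gfpPos and gfpNeg peaks in each gene and spacer of at least 2 kb, in genomic order from top to bottom; *Dst* is counted from the left edge of the window. The gfpPos bar is longest at *Ccdc115* (86.1%, against 31.1% for gfpNeg), a gene of 3.0 kb, and among intervals over 50 kb at *Dst* (28.0%) and the *Amer3* to *Arhgef4* spacer (26.2%).

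*Ccdc115*, *Imp4*, *Ptpn18* and *Fam168b* each had a common region at a promoter, as *Dst*, *Amer3* and *Arhgef4* did. *Ccdc115*, a factor for assembly of the vacuolar proton pump, and *Imp4*, a component of the U3 particle that processes ribosomal RNA, are transcribed divergently and shared 2 common regions. The stronger of these, chr1:34439085-34440510, had fold enrichments of 10.4 in the GFP-positive and 10.1 in the GFP-negative list. *Imp4* differed from its partner in its body, which held 3 GFP-positive-only regions with fold enrichments of 3.78, 3.13 and 2.81, all of them inside the antisense gene *Gm28306* as well. *Ptpn18*, a PEST-type tyrosine phosphatase, had the strongest GFP-negative peak of the window at its promoter, chr1:34459076-34460509, with fold enrichments of 8.81 in the GFP-positive and 16.3 in the GFP-negative list. Its body held 2 common regions, 1 GFP-positive-only region in an exon (3.58) and 1 GFP-negative-only region at an internal start site (3.29). *Fam168b*, an inhibitor of neurite outgrowth in neurons, had a single region, the common one at its promoter, chr1:34842119-34843879 (12.0 and 9.16).

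*Prss39* and *Prss40* encode testis serine proteases of the sperm acrosome. *Prss39* held 1 common region over its 5′ end at chr1:34498002-34500011, with fold enrichments of 5.67 in the GFP-positive and 6.41 in the GFP-negative list, whereas *Prss40* held 2 GFP-positive-only regions near its start, chr1:34558343-34558921 (3.28) and chr1:34560323-34560631 (2.78), with −log10 q of 1.64 and 1.37, and 1 GFP-negative-only region in an intron (3.70, −log10 q 2.93). Both GFP-positive-only values of *Prss40* were near the floor of the list, and the second lay in sequence with a copy number of 56.0. The 32.6 kb between *Prss39* and *Cfc1* held 4 GFP-positive-only regions, the strongest at chr1:34510579-34511421 (4.56 and a −log10 q of 6.76), and 1 GFP-negative-only region. *Cfc1*, an EGF-CFC co-receptor of Nodal that acts in left-right patterning, had no region at its promoter and 1 common region in an intron, with fold enrichments of 3.30 in the GFP-positive and 5.78 in the GFP-negative list.

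*Amer3* and *Arhgef4*, whose products both act with the tumour suppressor APC, had few GFP-positive-only regions despite the spacer between them. *Amer3* held none and 1 common promoter region, chr1:34578469-34580269, with fold enrichments of 4.10 in the GFP-positive and 6.73 in the GFP-negative list. Its RefSeq promoter had 34 CG dinucleotides, a number reached by 7.73% of promoters. *Arhgef4*, a gene of 135 kb, held 2 GFP-positive-only, 4 common and 2 GFP-negative-only regions, and GFP-positive peaks covered 3.49% of its bases against 2.89%. Its main promoter at chr1:34677449-34678705 was common (4.55 and 4.50), its internal promoter at chr1:34801497-34802307 was common with 3.0 in the GFP-positive and 5.11 in the GFP-negative list, and another at chr1:34749458-34749816 was GFP-negative-only (4.84). Beyond the listed genes, *Plekhb2*, a protein of recycling endosomes, had 2 GFP-positive-only regions at its promoter (4.04 and 3.52) beside a common one at chr1:34849840-34850181 (3.18 in the GFP-positive and 4.49 in the GFP-negative list), and another common region in an intron. The 120 kb from there to *Hs6st1* held 1 common and 1 GFP-negative-only region.

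By annotation, 37 of the 84 GFP-positive-only summits were in introns (44.0%), 28 between genes (33.3%), 11 in promoters (13.1%) and 8 in exons (9.52%). The bases of the window split into 41.4% intron, 34.5% intergenic, 16.0% promoter and 8.12% exon, so the shares differed from those of the bases by less than their counting intervals (33.9 to 54.7%, 24.2 to 43.9%, 7.47 to 21.9% and 4.91 to 17.7%). Over the genome, GFP-positive-only summits were 36.0% intron, 40.6% intergenic, 17.5% promoter and 5.88% exon. Common regions of the window were in promoters in 19 of 55 cases (34.5%, interval 23.4 to 47.7%), and their share over the genome was not computed. The median distance of the summit to the nearest annotated start was 5865 bp for GFP-positive-only, 4480 bp for common and 7372 bp for GFP-negative-only regions. Neighbouring GFP-positive-only summits were 4.47 kb apart in the median, and 43 of 83 gaps were under 5 kb.

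The GFP-positive-only peaks were of modest height. Their fold enrichment had a median of 3.46 (quartiles 3.15 and 3.99, highest 6.34), their −log10 q a median of 2.33 (lowest 1.35, highest 10.1) and their width a median of 626 bp. The fold enrichment and −log10 q of the GFP-positive-only peaks of the whole genome had medians of 3.55 and 2.07. In the window, 35 of 84 had a −log10 q under 2 and 20 under 1.5, against a floor of the lists of 1.3, so these GFP-positive calls were near the threshold. The lists give no GFP-negative value where no peak was called, so how far the signal differed there is unknown. The share under 2 was 41.7%, and over the genome it was 45.8%. At the other end, 9 of 84 (10.7%) reached a −log10 q of 5, and 11.1% did over the genome. Peaks of the GFP-positive list in common regions had a median fold enrichment of 4.28 and a median width of 1342 bp.

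The regions with peaks in both lists also differed between the lists. In the 55 common regions, GFP-positive peaks covered 90177 bp, 17158 bp of them by the widest *Dst* peak, and GFP-negative peaks covered 48254 bp. GFP-positive peaks covered more bases than GFP-negative peaks in 42 of the 55, and within *Dst* in 23 of 27. Over the common regions of the genome the same was true of 53.8%. By the rank of its −log10 q within its own list, the GFP-positive peak stood higher in 33 of 55 regions, and in 33.2% over the genome. Fold enrichments split evenly, with 29 of 55 higher in the GFP-positive list. Summits of the lists lay within 200 bp of each other in 35 of 55 regions, and in 76.8% over the genome. These measures come from the lists that also defined the window and are given without a test.

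**Figure D4:**
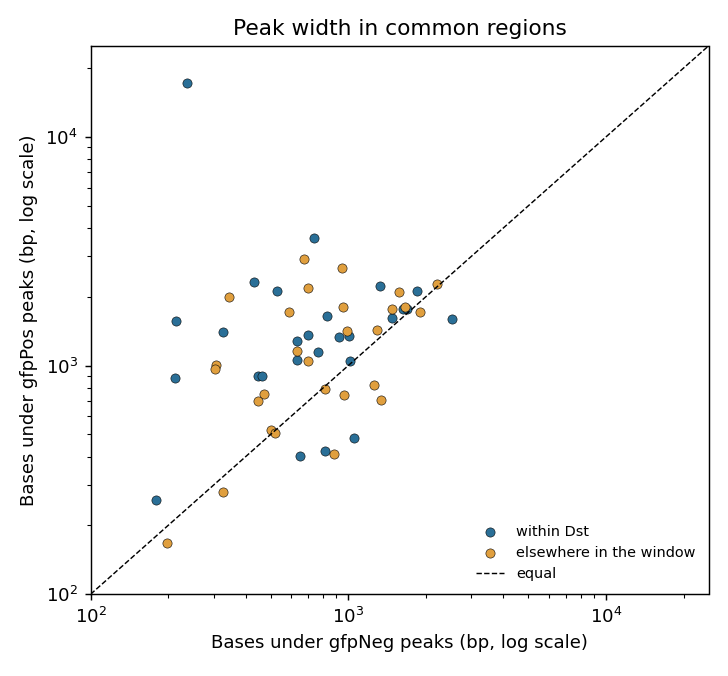
Bases under gfpPos peaks against bases under gfpNeg peaks in each of the 55 common regions, on log axes in bp, with the dashed line at equality and regions within *Dst* set apart by colour. Points above the line, 42 of 55, have more bases under gfpPos peaks, and the highest point is the 17158-bp peak of *Dst*.

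Within the window, the 3 highest −log10 q of the GFP-positive list were at common regions. The promoter of *Gm3052*, a transcribed pseudogene, at chr1:34416726-34418535 had fold enrichments of 19.3 in the GFP-positive and 15.5 in the GFP-negative list. Its summit was the only one among common regions with a copy number of 2 or more, 814, so its signal may come partly from other copies. Over its whole length the copy number was 14.0. Over whole regions, the common regions chr1:34602165-34604339 (226) and chr1:34569838-34570567 also had a copy number of 2 or more. The remaining high −log10 q values of the GFP-positive list were at the *Ccdc115* and *Imp4* promoter and the *Fam168b* promoter given above. Of the 14 GFP-negative-only regions, 6 lay in *Dst*, 4 of them in intron 4. The highest −log10 q among them were at chr1:34038294-34039046 (fold enrichment 6.53, −log10 q 11), chr1:34071272-34071667 (6.14 and 8.94) and the *Arhgef4* region above (4.84 and 6.68).

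Copy number was measured as the median, over the 31-base words within 200 bp around a summit, of how often each word occurs in the genome. Only 7 of the 84 GFP-positive-only summits had a copy number of 2 or more (8.33%, 95% Wilson interval 4.10 to 16.2%), and over the genome 36.5% of GFP-positive-only summits did. Among common summits it was 1 of 55 (1.82%) and among GFP-negative-only summits 0 of 14, which allows a share of up to 21.5% (Wilson). Among GFP-positive-only regions, the highest copy numbers were 652 and 634 at 2 adjacent regions of the *Amer3* to *Arhgef4* spacer, chr1:34645372-34648718 and chr1:34648931-34650725, whose bases were all soft-masked, that is, marked as repeats in the reference. Each multimapping read was placed at 1 best or random position, so signal at these 7 summits may come partly from other copies. Where those copies lie was not examined. The summit sequences at chr1:34229972-34230935 and chr1:34656432-34656928, with copy numbers of 9 and 7, repeat a short unit in tandem. At chr1:34334329-34335381 and chr1:34560323-34560631 the median copy number over the whole region was 1.00. Soft-masked bases made up 29.3% of GFP-positive-only, 24% of common and 19.1% of GFP-negative-only regions, 29.0% of the window as a whole, and 52.3% of GFP-positive-only regions over the genome.

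The density of CG dinucleotides differed between the classes in its median, with overlapping ranges. Within 200 bp around the summit there were 1.5 CG per 100 bp at GFP-positive-only, 2.5 at common and 1.0 at GFP-negative-only summits, and the window averaged 1.23. The ranges were 0 to 5.5, 0 to 12.5 and 0 to 2.5. A density of 3 or more was found at 23 of 84, 24 of 55 and 0 of 14 summits. The GC content had medians of 49.2%, 52.5% and 48.2%, and the window as a whole 45.1%. The sequences above show this spread, from 1 CG in the strongest GFP-positive-only region to 13 at the *Ptpn18* promoter.

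In other windows with many GFP-positive-only regions, more of their summits lay in multi-copy sequence. The *Sp100* window (chromosome 1 from 85 Mb) held 131 such regions, the *Oog1* window (chromosome 12 from 87 Mb) 102 and the *Zscan4* window (chromosome 7 from 11 Mb) 83. A copy number of 2 or more was found at 84.7% (interval 77.6 to 89.9%), 65.7% (56.1 to 74.2%) and 79.5% (69.6 to 86.8%) of their GFP-positive-only summits, and at 8.33% in the *Dst* window, which was chosen for this property. The intervals cover counting error only and the difference was not tested. The common regions were fewer there, at 17, 24 and 5, against 55. The highest −log10 q of a GFP-positive-only region was 34.7, 21.4 and 24.3, and 10.1 in the *Dst* window, whose median fold enrichment of 3.46 lay between 2.68 in the *Sp100* and 4.0 in the *Zscan4* window.

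**Figure D5:**
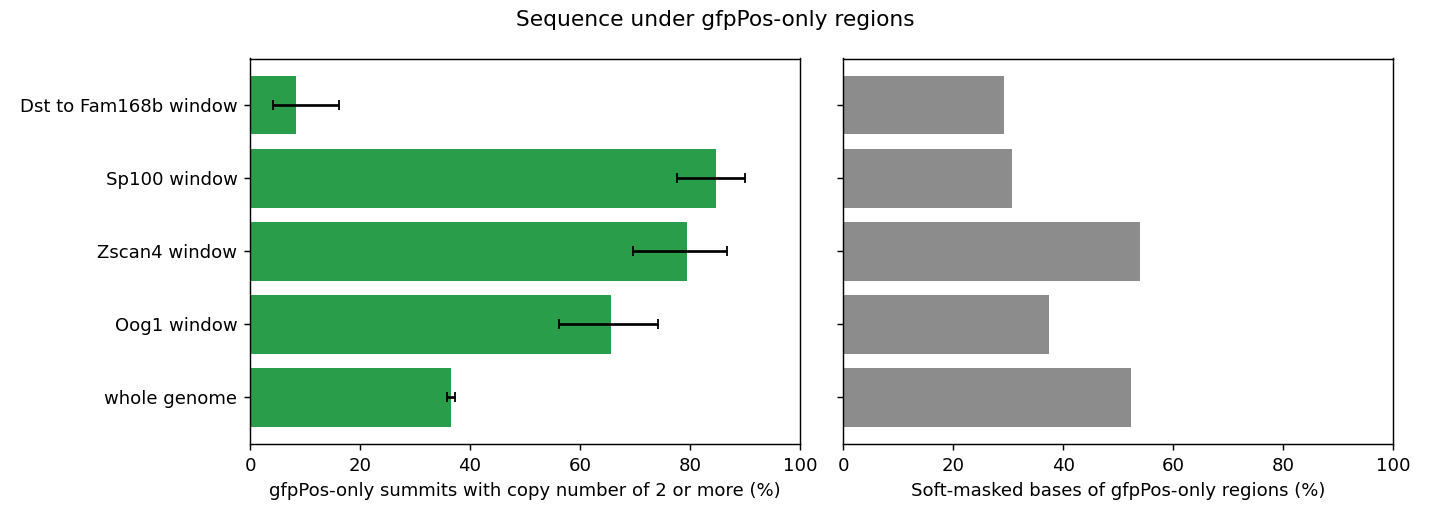
Left, percentage of gfpPos-only summits with a copy number of 2 or more in 4 windows of 1 Mb and in the whole genome, with 95% Wilson intervals as error bars; right, percentage of soft-masked bases in the same gfpPos-only regions. The *Dst* to *Fam168b* window has the lowest bar on the left, 8.33%, and a soft-masked share of 29.3%, close to the 30.7% of the *Sp100* window.

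Relatives of the window's genes elsewhere in the genome were counted over the gene and 10 kb on both sides. Such counts can include regions of neighbouring genes and spacers. The window was chosen for its many GFP-positive-only regions, so the comparison of its genes with relatives is descriptive and was not tested. Over all regions of the genome, 18.4% were GFP-positive-only. Of the plakins, *Dst* held 46 GFP-positive-only, 35 common and 10 GFP-negative-only regions, and *Macf1*, the other spectraplakin and with 335 kb of similar length, held 9, 15 and 13. *Plec*, *Dsp*, *Ppl* and *Evpl* held 0, 0, 1 and 0 GFP-positive-only regions, of 19, 7, 6 and 11 regions in all. *Ptpn18* had 4 of 8, with 1 of these 4 within the gene. The other PEST phosphatases *Ptpn12* and *Ptpn22* had 0 of 3 and 0 of 2. *Imp4* had 6 of 10, with 3 of these 6 within the gene. Its U3 partners *Mphosph10* and *Imp3* had 3 of 5 and 0 of 3. With totals this small, a count of 0 says little beside the share of 18.4%. Regions in the spacer between *Imp4* and *Ptpn18* were counted for both genes. Of the testis proteases outside the window, *Prss55* had 1 of 2 and the 6 others counted had 0, of 2 to 7 regions each. In 3 other families a relative outside the window had a higher count. *Fam168a* had 5 of 9 against 2 of 5 for *Fam168b*. For *Spata13* it was 3 of 15 against 2 of 9 for *Arhgef4*, and for *Amer1* 1 of 3 against 0 of 4 for *Amer3*. The 2 counted for *Fam168b* lay at the *Plekhb2* promoter, and *Fam168b* itself held 0. *Amer2*, and both *Cfc1* and its relative *Tdgf1*, had 0, of 1, 2 and 7 regions.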

How the data were processed

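CUT&RUN libraries for DPPA4 were 2 of GFP-negative and 2 of GFP-positive cells, and groups were taken from the sample titles. Per the study's methods and the submitters' processing notes, reads were trimmed with bbduk, aligned to mm10 with STAR 2.7.10 (each multimapping read at 1 best or random position), deduplicated with Picard 2.26.0, cleared of blacklisted high-signal regions, and called with MACS2 2.2.6 on fragments. The deposited lists pool the libraries and give, per peak, the fold enrichment (a ratio) and the −log10 q of the authors' caller, and the offset of the summit. Read totals were not used here, so the depth behind the peaks is unknown. A q filter or the use of IgG as control was not stated for CUT&RUN; the lowest −log10 q was 1.30.

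Peaks were merged where they shared at least 1 bp. Summits were annotated by GENCODE vM21 in the order promoter (2.5 kb before to 0.5 kb after a start), exon, intron, intergenic. Base composition and copy number (31-base words) were read from the mm10 reference. Scripts used Python 3.11.15, numpy 2.4.6 and numba 0.67.0, were tested on simulated peaks, and gave no p-values, because each list is 1 pool. Promoters of 9 of the 10 listed genes matched the RefSeq table; *Fam168b* did not.

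The listed genes and comparison lists were chosen with earlier results of these data known. Named were the listed genes and other genes at a region, their relatives, the first coding gene beyond each edge, and by rule the 3 highest −log10 q per class, promoter regions of listed genes, the widest region and GFP-positive-only regions whose −log10 q reached 5. Other regions named were chosen after their values were seen. Alternatives changed the overlap rule, q threshold, list length, region assignment and annotation.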

Additional observations from a re-analysis of the deposited data

How the results depend on the processing

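No paired analysis was possible because 1 deposited peak list stands for both libraries of a group, and for the same reason no replicate could be left out. Of 48 alternative values, 36 stayed close to the main value and 12 moved further. Close meant within 1.5 times a count, within the 95% interval of a share, or within the spread over regions. That spread was 1 SD of soft-masked shares or the quartiles of fold enrichment. Whether any result reversed was not assessed. With both lists at a −log10 q of at least 2, the window held 55 GFP-positive-only regions, 18 of them in introns, and the whole *Dst* gene, which begins outside the window, held 29 against 46 before. At a −log10 q of at least 5 the window held 17 GFP-positive-only and 15 common regions. The GFP-positive-only share was 37.0%, against 10.6% over the genome at that threshold. Only 9 of these 17 were GFP-positive-only in the main analysis. The others had been common and lost a GFP-negative peak below the cut. An example is chr1:34436891-34438890 at *Ccdc115* (GFP-positive 7.49, GFP-negative 3.09). The 55 regions at a threshold of 2 also include some that had been common. In lists of the 10000 peaks with the highest −log10 q, the window held 5 GFP-positive-only, 4 common and 1 GFP-negative-only regions. The GFP-positive-only share was then 50%, against 24.6% over the genome. With the GFP-negative list trimmed to the length of the GFP-positive list, GFP-negative-only regions fell to 9 and the GFP-positive-only share was 66.2%, against 30.1% over the genome. Requiring summits within 200 bp for a common region gave 102 GFP-positive-only, 38 common and 37 GFP-negative-only regions. The GFP-positive-only share was then 57.6%, against 24.6% over the genome. Stricter thresholds and trimming leave fewer peaks in the lists, and a common region changes class when the peak of only 1 list is removed. Under the 200 bp summit rule, overlapping peaks with summits further apart count as separate regions of single lists, unless another peak links them. The shares of summits with a copy number of 2 or more were 7.14% over whole regions and 8.33% with 24-base words. With 1 pool of libraries per group, GFP state, sort, and library cannot be told apart.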
